A study of Mus musculus with 12 samples.

Results

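The 8 genes described here encode the ligands Clcf1, Lif and Osm, the receptor chains Cntfr, Lifr, Il6ra and Il6st (gp130), and the transcription factor Stat3. They were chosen by gene name: every non-control spot that carried one of these names was taken, which gave 17 probes of the 61307 on the array. All 8 genes had at least 1 probe among the 31599 probes that were tested, and 14 of the 17 probes were tested. The rule did not use any measured value, but the genes were listed with earlier results of these data known.

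Total RNA of resting B (RB) cells from the spleen of female BALB/c mice aged 6 weeks was hybridised to 12 one-colour arrays. The 6 groups were unstimulated cells, Pam2CSK4 (a lipopeptide that activates TLR-2), anti-CD86 antibodies, anti-CD86+Pam2CSK4 (TLR2.CD86), anti-CD40 antibodies and anti-CD40+Pam2CSK4, each with 2 arrays and all read after 4 h. The cells had been purified by magnetic removal of CD43-bearing cells. The anti-CD86 antibodies were cross-linked through biotin and streptavidin, and the methods describe no procedure for anti-CD40. The samples of a group are described as biological replicates, without saying whether they came from separate mice or cultures, so p-values measure only the spread between these samples, which may be technical. Only the RNA was measured, and in bulk RNA fewer cells of a type and less RNA per cell cannot be told apart.

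Cytokines of this family signal through gp130, the receptor chain encoded by Il6st. Il6 binds its own alpha chain Il6ra and then a pair of gp130 chains, whereas Lif and Clcf1 bring gp130 together with the Lif receptor (Clcf1 through the alpha chain Cntfr). In mouse, Osm joins gp130 chiefly with its own receptor. The bound chains activate JAK kinases, which phosphorylate Stat3, and Stat3 enters the nucleus and drives target genes such as Socs3 that close the loop. Clcf1 is known as a B cell stimulating factor.

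The array measures each gene with 60-base probes, whose sequences came from the scanner files. Those shown are the single Clcf1 probe, since Clcf1 is the gene most often called, and both Il6ra probes, since their readings differed. They are given 5′ to 3′ in lower case, with no part singled out. The files give no genome position for any of them.
Clcf1 probe: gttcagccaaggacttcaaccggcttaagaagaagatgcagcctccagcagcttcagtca
Il6ra probe 1: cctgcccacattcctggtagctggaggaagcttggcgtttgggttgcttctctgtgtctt
Il6ra probe 2: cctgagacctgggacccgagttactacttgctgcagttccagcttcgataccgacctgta

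Values are log2 signals relative to the 75th percentile (P75) of their own array, so 0 is the level of the 75th percentile and 1 unit is a doubling. Where a gene had several tested probes, the brightest was used. Differences were tested with limma over all tested probes, and a gene was called at a Benjamini-Hochberg adjusted p under 0.05. Levels of different probes are not compared, since probes differ in brightness. The 4 second replicates of Pam2CSK4, anti-CD40, anti-CD86 and TLR2.CD86 lay on slide 2 and the other 8 arrays on slide 1. The slides differed over all probes, with the first principal component (32.7% of the variance) separating them, so values from a model with the slide as a further term (slide-adjusted) are also given. That model called many more of the 31599 probes against unstimulated cells. With Pam2CSK4 it called 3510 instead of 46, and with anti-CD40+Pam2CSK4 14996 instead of 5763.

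Of the 8 genes, 0 were called with Pam2CSK4 (0.160% of all 14407 genes were), 1 with anti-CD86 (2.14%), 0 with anti-CD40 (20.5%), 2 with TLR2.CD86 (13.1%) and 1 with anti-CD40+Pam2CSK4 (21.5%), each against unstimulated cells. The called genes were Clcf1, which rose in 3 of these 5 comparisons, and Lifr, which fell with TLR2.CD86. At an unadjusted p under 0.05 limma gave 3, 3, 5, 5 and 1 of the 8 genes in the same order, beside 17.4, 26.3, 39.3, 35.2 and 38.4% of all genes. The median log2 fold change of the 8 genes was 0.07, 0.15, -0.12, 0.06 and 0.02, beside -0.16, -0.16, -0.18, -0.20 and -0.10 over all genes; with Cntfr at its bound they became 0.06 with anti-CD86, 0.0014 with TLR2.CD86 and -0.02 with anti-CD40+Pam2CSK4. The 5 comparisons share the same 2 unstimulated arrays.

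**Figure D1:**
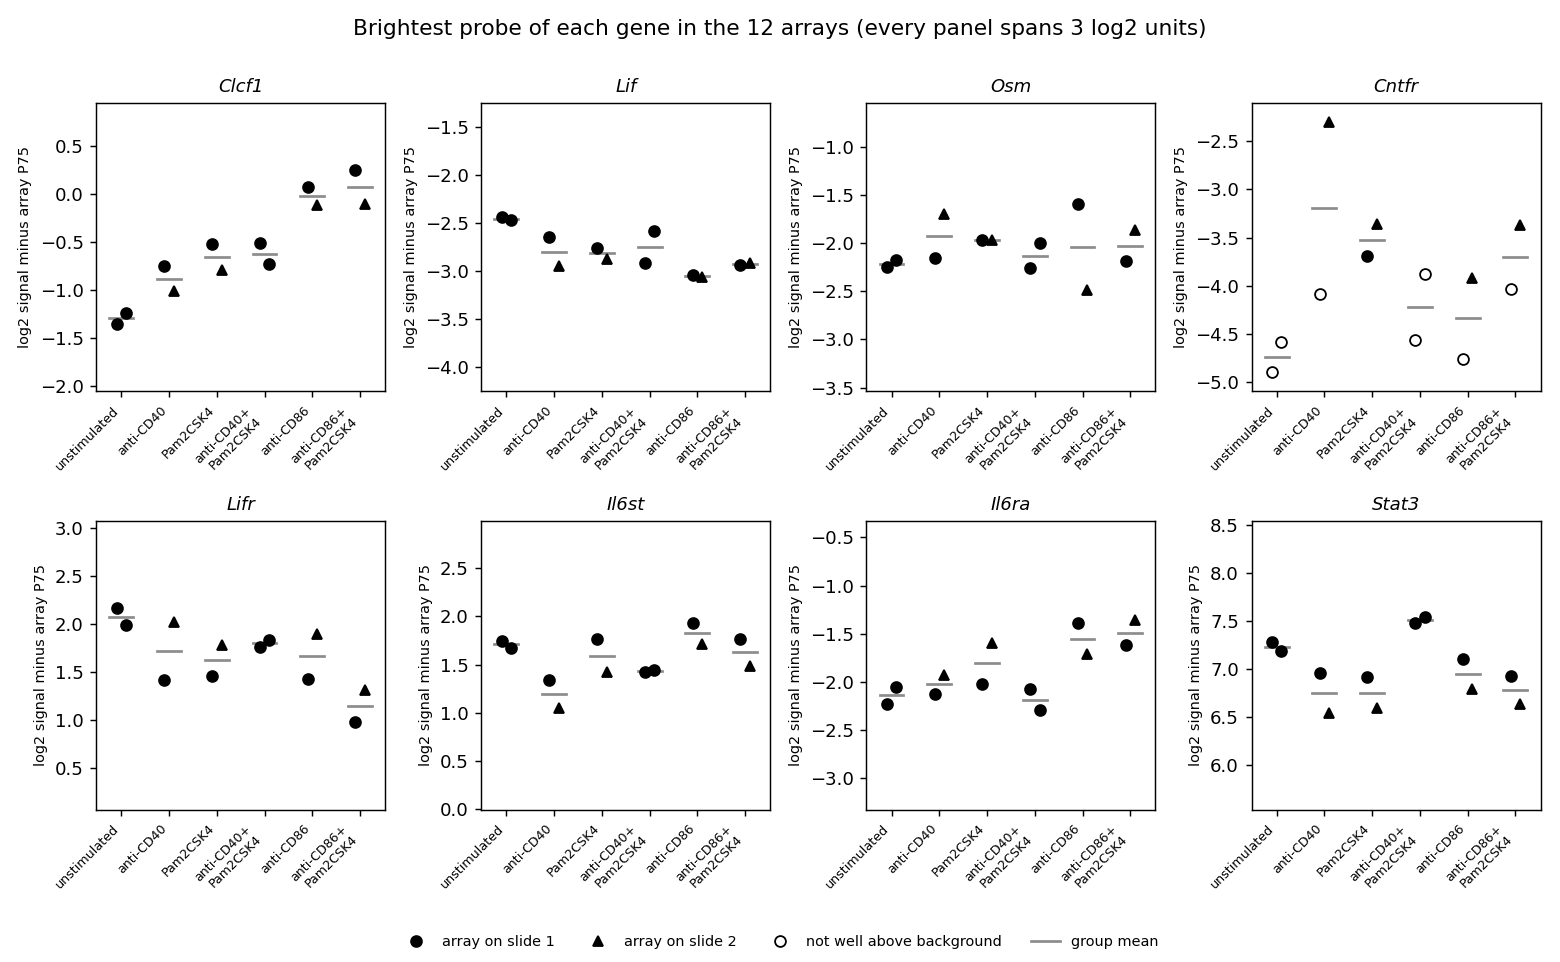
Log2 signal relative to the array's 75th percentile (vertical axis, log2 units) of the brightest probe of each gene in the 6 groups; circles are arrays on slide 1, triangles arrays on slide 2, open symbols arrays not well above background, and grey lines group means. Clcf1 climbed from -1.29 in unstimulated cells to 0.07 with TLR2.CD86, and Stat3 was highest, at 7.51, with anti-CD40+Pam2CSK4.

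Clcf1, the ligand, was well above background on all 12 arrays. Its log2 signals were -1.35 and -1.23 in unstimulated cells, -0.75 and -1.01 with anti-CD40, -0.52 and -0.79 with Pam2CSK4, and -0.51 and -0.73 with anti-CD40+Pam2CSK4. They were 0.07 and -0.11 with anti-CD86, and 0.25 and -0.10 with TLR2.CD86. Every stimulated array thus lay above both unstimulated arrays, and the 4 arrays that had received anti-CD86 lay above the other 8 with no overlap.

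Against unstimulated cells Clcf1 rose 2.58-fold with TLR2.CD86 (log2 fold change 1.36, SE 0.17, 95% interval 0.96 to 1.77, adjusted p = 0.0102) and 2.41-fold with anti-CD86 alone (log2 1.27, adjusted p = 0.0260). It rose 1.59-fold with anti-CD40+Pam2CSK4 (log2 0.67, interval 0.27 to 1.08, adjusted p = 0.0325). With Pam2CSK4 alone the log2 fold change was 0.63 (interval 0.23 to 1.04, adjusted p = 0.182). With anti-CD40 alone it was 0.41 (interval 0.01 to 0.81, adjusted p = 0.141), a direction that turned to -0.16 under median normalization. After slide adjustment all 5 differences passed, including Pam2CSK4 (log2 0.77, adjusted p = 0.0100) and anti-CD40 (log2 0.54, adjusted p = 0.00527).

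Scaling each array to its median instead of P75 lowered all log2 fold changes from unstimulated cells, by 0.20 with Pam2CSK4, 0.14 with anti-CD86, 0.57 with anti-CD40, 0.29 with TLR2.CD86 and 0.11 with anti-CD40+Pam2CSK4. Relative to the median of all tested probes, which no such scaling moves, Clcf1 was higher by 0.70, 1.32, 0.43, 1.39 and 0.66 in the same order. The SE of Clcf1 grew from 0.17 to 0.47 with that scaling, and none of its calls passed.

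The costimulatory signals differed from each other in Clcf1. The level was 1.81-fold lower with anti-CD40 than with anti-CD86 (log2 -0.86, interval -1.26 to -0.46, adjusted p = 0.0206), where 1 of the 8 genes and 10.4% of all genes were called. It was 1.62-fold lower with anti-CD40+Pam2CSK4 than with TLR2.CD86 (log2 -0.69, interval -1.09 to -0.29, adjusted p = 0.0389), where 2 of the 8 and 13.6% of all genes were called. The first was -0.82 on slide 1 and -0.90 on slide 2 between single arrays, and was called in 9 of the 12 fits that left out 1 array. The second was called in 4 of the 12 (adjusted p up to 0.221), and not under quantile normalization (adjusted p = 0.0612) or normexp background correction (adjusted p = 0.0706).

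Combining the stimuli called 0 of the 8 genes for TLR2.CD86 against anti-CD86 (0.208% of all genes were), against Pam2CSK4 (0.0278%) and for anti-CD40+Pam2CSK4 against anti-CD40 (2.60%). At an unadjusted p under 0.05 limma gave 0, 1 and 1, beside 8.42, 9.56 and 19.5% of all genes. The log2 difference of TLR2.CD86 from anti-CD86 was 0.09 (interval -0.31 to 0.50, adjusted p = 0.944) and that of anti-CD40+Pam2CSK4 from anti-CD40 was 0.26 (adjusted p = 0.444). Adding anti-CD86 to Pam2CSK4 gave 0.73 (interval 0.33 to 1.13, adjusted p = 0.217), with similar sizes of 0.77 on slide 1 and 0.69 on slide 2, and it passed after slide adjustment (adjusted p = 0.0114). Adding anti-CD40 to Pam2CSK4 gave 0.04 (interval -0.36 to 0.44, adjusted p = 0.917). The Clcf1 interaction of anti-CD86 and Pam2CSK4 was -0.54 (interval -1.11 to 0.03, adjusted p = 0.969), or -0.67 after slide adjustment (adjusted p = 0.106). That of anti-CD40 and Pam2CSK4 was -0.37 (interval -0.94 to 0.20, adjusted p = 0.367), or -0.64 after slide adjustment (adjusted p = 0.0432).

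The order of the Clcf1 group means was unstimulated (-1.29 ± 0.09, SD, n = 2), anti-CD40 (-0.88 ± 0.19), Pam2CSK4 (-0.66 ± 0.19), anti-CD40+Pam2CSK4 (-0.62 ± 0.16), anti-CD86 (-0.02 ± 0.13) and TLR2.CD86 (0.07 ± 0.25). Pam2CSK4 overlapped with anti-CD40 and with anti-CD40+Pam2CSK4, which did not overlap with each other, and the 2 groups at the top overlapped. Leaving out 1 array at a time gave log2 fold changes of the same sign in each of the 5 comparisons with unstimulated cells. The call with anti-CD86 was lost without either unstimulated, either anti-CD86 or either anti-CD40+Pam2CSK4 array (adjusted p up to 0.192), that with TLR2.CD86 without either unstimulated array (up to 0.0914), and that with anti-CD40+Pam2CSK4 without either of its own or either unstimulated array (up to 0.176).

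**Figure D2:**
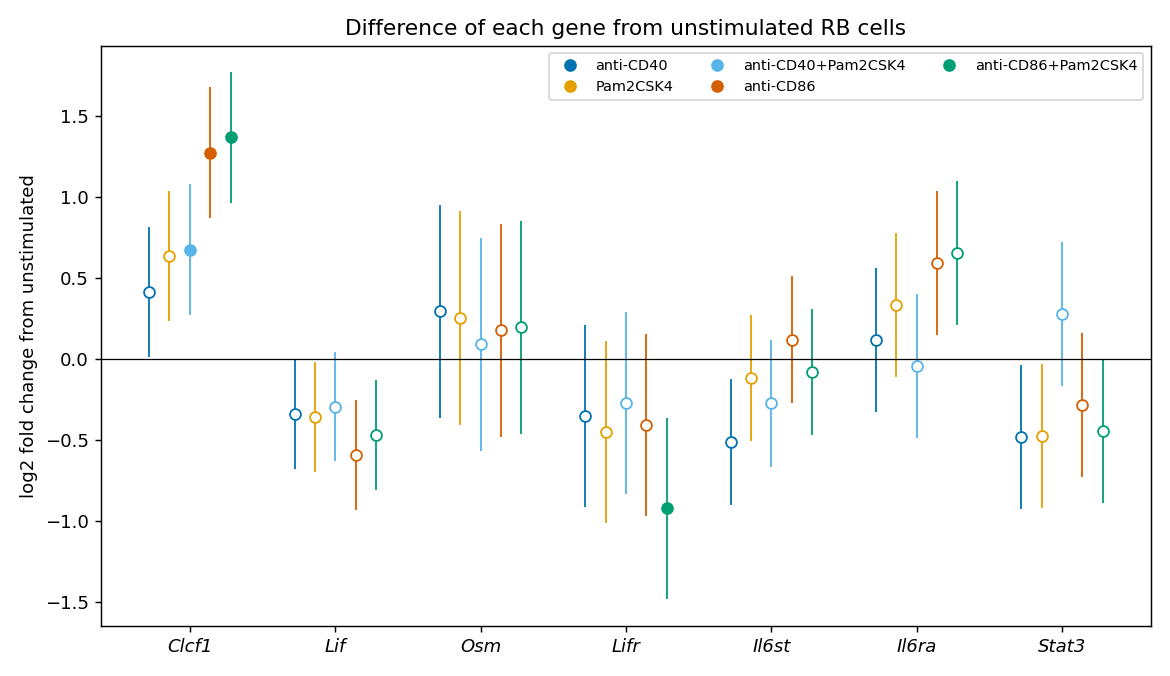
Log2 fold change from unstimulated RB cells (vertical axis) of the 7 genes well above background on every array, for the 5 stimuli; points are limma estimates from 2 arrays a group, bars their 95% intervals, and filled points have an adjusted p under 0.05. The 4 filled points are Clcf1 with anti-CD40+Pam2CSK4, anti-CD86 and TLR2.CD86, and Lifr with TLR2.CD86.

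The 5 genes whose brightest probe followed Clcf1 most closely over the 12 arrays, among 12010 genes well above background and unsaturated on all of them, were Ars2 (Pearson r = 0.983), Ndor1 (0.972), Ap3d1 (0.966), Axin1 (0.956) and Tyk2 (0.954). These are descriptions over arrays of 6 groups and 2 slides. Ars2, a factor of RNA processing, had mean log2 signals of 0.57 in unstimulated cells, 0.90 with anti-CD40, 1.52 with anti-CD86 and 1.44 with TLR2.CD86. Tyk2 is itself a JAK kinase of the gp130 pathway. It rose with TLR2.CD86 (log2 0.72, SE 0.16, adjusted p = 0.0297).

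Lif, the second ligand, was dim. Its brighter probe gave -2.44 and -2.47 in unstimulated cells, -3.04 and -3.06 with anti-CD86, -2.94 and -2.91 with TLR2.CD86, and between -2.95 and -2.58 in the other 3 groups. All 10 stimulated arrays lay below both unstimulated arrays. The largest difference, with anti-CD86, was -0.60 (interval -0.94 to -0.26, adjusted p = 0.0725), and it passed after slide adjustment (-0.54, adjusted p = 0.0238), as did TLR2.CD86 (-0.42, adjusted p = 0.0460).

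The array holds the same Lif probe sequence under both of its probe names, so the pair shows the noise of a spot at this brightness. The 2 readings agreed within 0.3 on 7 of the 12 arrays, and the SD of their difference was 0.32. They differed most, by 0.83, on the first anti-CD40+Pam2CSK4 array, where the second reading was not well above background. The second reading gave -0.72 with anti-CD86 (adjusted p = 0.242).

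Osm, the third ligand, ranged from -2.49 to -1.59 and was well above background on all 12 arrays. Its highest and lowest arrays were the 2 replicates of anti-CD86, and the groups overlapped. Its log2 fold changes ran from 0.09 to 0.29, each with an adjusted p of at least 0.503, and the intervals reached from -0.57 to 0.95. A second Osm probe was not well above background on any array.

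Cntfr, the alpha chain that Clcf1 uses, was near the detection limit. Its better probe was well above background on both Pam2CSK4 arrays, on 1 array each of anti-CD40, anti-CD86 and TLR2.CD86, and on no unstimulated or anti-CD40+Pam2CSK4 array. The second Cntfr probe was not well above background on any array. The probe entered the test through Pam2CSK4 alone, and against the detection limit of the unstimulated arrays its level there was at least 1.20-fold higher (measured means -3.53 and -4.74, adjusted p = 0.337). It read 0.91 higher on slide 2 than on slide 1 in the slide-adjusted model (adjusted p = 0.0233), and all 3 single arrays that passed in a group were on slide 2. Cntfr on slide 1 alone passed only on the first Pam2CSK4 array.

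Il6ra, the alpha chain for Il6, was highest in the groups with anti-CD86. Probe 1 gave -2.23 and -2.05 in unstimulated cells, -1.39 and -1.71 with anti-CD86, and -1.62 and -1.36 with TLR2.CD86. The 4 anti-CD86 arrays lay above both unstimulated arrays, but the second Pam2CSK4 array, at -1.59, lay among them. Log2 fold changes were 0.59 with anti-CD86 (interval 0.15 to 1.03, adjusted p = 0.124) and 0.65 with TLR2.CD86 (SE 0.19, adjusted p = 0.0657), and neither was called.

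Between the combined stimuli Il6ra was 0.70 lower with anti-CD40+Pam2CSK4 than with TLR2.CD86 (interval -1.14 to -0.25, adjusted p = 0.0525), and 0.63 lower after slide adjustment (adjusted p = 0.0427). Probe 2 gave 0.51 with anti-CD86 and 0.37 with TLR2.CD86 against unstimulated cells (adjusted p = 0.126 and 0.175). Its difference between the combined stimuli was -0.20 (adjusted p = 0.457), and anti-CD40 lay 0.62 below anti-CD86 after slide adjustment (adjusted p = 0.0233). The Pearson r between the 2 probes over the 12 arrays was 0.39.

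Lifr, the second signalling chain of the Lif and Clcf1 receptors, fell 1.90-fold with TLR2.CD86 on its brightest probe (log2 -0.93, SE 0.24, interval -1.49 to -0.36, adjusted p = 0.0489). The 2 TLR2.CD86 arrays, at 0.98 and 1.32, were the lowest of the 12, against 2.16 and 1.99 in unstimulated cells. Without either unstimulated array the adjusted p was 0.231 or 0.179, and it passed in 2 of the 12 fits that left out 1 array.

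The first replicates, all on slide 1, gave Lifr levels of 1.42 with anti-CD40, 1.46 with Pam2CSK4, 1.43 with anti-CD86 and 0.98 with TLR2.CD86. The second replicates on slide 2 were all higher, at 2.01, 1.78, 1.90 and 1.32. TLR2.CD86 was the lowest group on each slide, 0.45 below anti-CD86 on slide 1 and 0.58 below it on slide 2 (slide-adjusted -0.51, adjusted p = 0.0290). It was also lower than Pam2CSK4 (slide-adjusted -0.47, adjusted p = 0.0280) and than anti-CD40+Pam2CSK4, which read 0.65 higher (adjusted p = 0.124) and 0.86 higher after slide adjustment (adjusted p = 0.00109). The Lifr interaction of anti-CD40 and Pam2CSK4 was 0.53 (adjusted p = 0.358), or 0.96 after slide adjustment (adjusted p = 0.0160). After slide adjustment Lifr was lower in all 5 comparisons with unstimulated cells, from -0.28 with anti-CD40+Pam2CSK4 (adjusted p = 0.0465) to -1.14 with TLR2.CD86 (adjusted p = 0.000961).

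**Figure D3:**
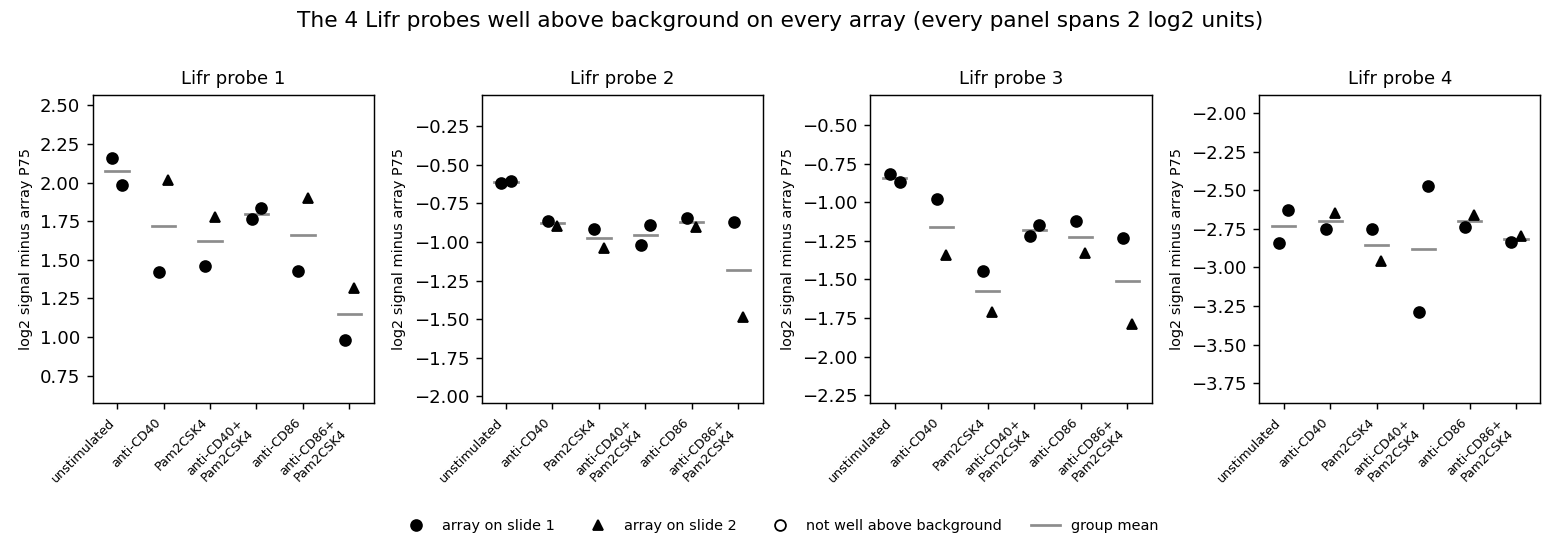
Log2 signal relative to the array's 75th percentile (vertical axis) of the 4 Lifr probes well above background on all 12 arrays; circles are slide 1, triangles slide 2, and grey lines group means. Within each of the 4 groups with an array on either slide, the slide 2 array sits higher on probe 1 and lower on probes 2 and 3.

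The other Lifr probes bear on how far this holds. Probe 2 read -0.62 and -0.60 in unstimulated cells and between -1.49 and -0.84 on every stimulated array. Probe 3 read -0.82 and -0.87 in unstimulated cells and between -1.79 and -0.98 on every stimulated array. On both probes all 10 stimulated arrays thus lay below the unstimulated ones, although none of the differences was called. With TLR2.CD86 they were -0.57 (adjusted p = 0.0822) and -0.67 (adjusted p = 0.0746). After slide adjustment probe 3 passed with Pam2CSK4 (-0.56, adjusted p = 0.0206), TLR2.CD86 (-0.49, adjusted p = 0.00880) and anti-CD40+Pam2CSK4 (-0.34, adjusted p = 0.0197).

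Slide 2 read 0.43 higher than slide 1 on Lifr probe 1 (adjusted p = 0.00236) and 0.35 lower on probe 3 (adjusted p = 0.00422). Probe 4 moved by at most 0.15 in any of the 5 comparisons (adjusted p of at least 0.735). Probe 5 was above background on both anti-CD86 and both TLR2.CD86 arrays and on no unstimulated array. It entered the test through these 2 groups alone, so a higher level there was partly set by the filter. Each unstimulated array was taken at its reading or the detection limit, whichever was higher. Probe 5 was then 1.37-fold and 1.29-fold higher (1.25-fold and 1.06-fold under median normalization). The direction was opposite to probe 1 but not called (adjusted p = 0.418 and 0.448). Probe 6 was not above background on any array. The Pearson r over the 12 arrays was 0.86 between probes 2 and 3, and 0.44 between probes 1 and 2.

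The genes most like Lifr probe 1 over the 12 arrays, by the same rule as for Clcf1, were Gm6811 (Pearson r = 0.967), Airn (0.954), Pcbd2 (0.933), Gm5215 (0.932) and 4930488N24Rik (0.931). Liver makes much Lifr. Of 5 liver markers 4 were on the array, and 0 of them were well above background on all 12 arrays. Ttr, 1 of these 4, was well above background on no array. Alb and Fgb, also among these 4, exceeded background on every array of 5 groups and on 1 anti-CD40+Pam2CSK4 array each. In anti-CD40+Pam2CSK4 they dropped to means of -2.97 and -3.55, from 2.18 and 0.86 in unstimulated cells. Lifr read 1.76 and 1.83 in that group, and the part of liver transcripts in the Lifr values was not tested.

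Il6st, which encodes gp130 itself, was well above background on all 12 arrays and ranged from 1.05 to 1.93. The lowest arrays were the 2 of anti-CD40, at 1.34 and 1.05, against 1.75 and 1.67 in unstimulated cells, 1.93 and 1.72 with anti-CD86 and 1.43 and 1.44 with anti-CD40+Pam2CSK4. Anti-CD40 did not overlap with any other group. Its log2 fold change was -0.51 (interval -0.90 to -0.12, adjusted p = 0.0728), or -0.37 after slide adjustment (adjusted p = 0.00340).

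Anti-CD40 lay 0.63 below anti-CD86 in Il6st (interval -1.02 to -0.24, adjusted p = 0.0543), which passed after slide adjustment (adjusted p = 0.000393). The other comparisons with unstimulated cells ranged from -0.28 with anti-CD40+Pam2CSK4 to 0.12 with anti-CD86. The first of these passed after slide adjustment (adjusted p = 0.00660), and so did the second, at 0.26 (adjusted p = 0.0190). Anti-CD40+Pam2CSK4 lay 0.20 below TLR2.CD86 (adjusted p = 0.487), or 0.34 below it after slide adjustment (adjusted p = 0.00551).

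Stat3, the factor on which these receptors converge, was among the bright probes, with processed intensities of 33355 to 54188 and no spot marked as saturated. Its log2 signals were 7.28 and 7.19 in unstimulated cells, 7.48 and 7.54 with anti-CD40+Pam2CSK4, and between 6.54 and 7.10 in the 4 other groups. The 2 anti-CD40+Pam2CSK4 arrays were above the other 10, and the unstimulated pair lay between them and the rest.

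Stat3 rose 1.68-fold when anti-CD40 was added to Pam2CSK4 (log2 0.75, interval 0.31 to 1.20, adjusted p = 0.0466), where it was the 1 gene of the 8 called (11.0% of all genes were). It was 1.65-fold higher with anti-CD40+Pam2CSK4 than with TLR2.CD86 (log2 0.72, adjusted p = 0.0466). Each call remained in 2 of the 12 fits that left out 1 array, with adjusted p up to 0.244 and 0.219. Against unstimulated cells anti-CD40+Pam2CSK4 gave 0.27 (interval -0.17 to 0.72, adjusted p = 0.368), and the 4 other stimuli gave -0.49 to -0.29. After slide adjustment the combination passed (0.27, adjusted p = 0.00932), and so did Pam2CSK4 (-0.31, adjusted p = 0.0306), anti-CD40 (-0.32, adjusted p = 0.00846) and TLR2.CD86 (-0.28, adjusted p = 0.0146). The combination against anti-CD40 alone was 0.76 (adjusted p = 0.0873), or 0.59 after slide adjustment (adjusted p = 0.00264).

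The interaction of anti-CD40 and Pam2CSK4 in Stat3 was 1.24 (interval 0.61 to 1.87, adjusted p = 0.0899), since the single stimuli lay below unstimulated cells and their combination above. It was 0.90 after slide adjustment (adjusted p = 0.00511). Both anti-CD40+Pam2CSK4 arrays and both unstimulated arrays were on slide 1, and slide 2 read 0.33 lower than slide 1 (adjusted p = 0.00132). On slide 1 alone the differences from unstimulated cells were -0.31 with Pam2CSK4, -0.28 with anti-CD40 and 0.27 with the combination. No gene of the 8 was called for either interaction, of which 0.868% (anti-CD40) and 0.00694% (anti-CD86) of all genes were, and 2 and 1 of the 8 had an unadjusted p under 0.05, beside 19.9 and 3.64% of all genes.

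The summed linear level of 5 neutrophil markers lay higher in unstimulated cells and with anti-CD40+Pam2CSK4, which overlapped, than in the 4 other groups. It was 532 to 558 times P75 in unstimulated cells and 521 to 565 with anti-CD40+Pam2CSK4, and 417 to 518 in the 4 other groups. All 5 markers were well above background on all 12 arrays. The neutrophil gene S100a8 alone did not have this order of groups. Its mean log2 signal was 6.53 with anti-CD40+Pam2CSK4, below 6.99 in unstimulated cells and 6.65 with Pam2CSK4. It was above 6.32 with anti-CD40, 6.48 with anti-CD86 and 6.41 with TLR2.CD86. Neutrophils also express Stat3, Osm and Il6ra. The part of neutrophil transcripts in the Stat3 values was not tested.

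A probe named LOC100045296, which the array design annotates to a predicted gene similar to Stat3B and to a Stat3 transcript, lies outside the rule and was singled out after its values were seen. It gave another picture of a Stat3 transcript. It read 1.28 and 1.25 in unstimulated cells, 1.73 and 1.51 with anti-CD40, 1.67 and 1.45 with Pam2CSK4, and 1.73 and 1.76 with anti-CD40+Pam2CSK4. It read 2.32 and 2.18 with anti-CD86 and 2.29 and 2.03 with TLR2.CD86. As in Clcf1, every stimulated array lay above the unstimulated pair and the 4 anti-CD86 arrays lay above the rest.

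This probe rose 1.98-fold with anti-CD86 (log2 0.99, SE 0.14, adjusted p = 0.0260), 1.86-fold with TLR2.CD86 (log2 0.90, adjusted p = 0.0142) and 1.40-fold with anti-CD40+Pam2CSK4 (log2 0.48, adjusted p = 0.0489). It was 0.63 lower with anti-CD40 than with anti-CD86 (adjusted p = 0.0283). The first 3 of these were called in 6, 10 and 4 of the 12 fits that left out 1 array. Its Pearson r over the 12 arrays was 0.97 with Clcf1 and -0.12 with the Stat3 probe. The 2 probes gave opposite signs for all stimuli except anti-CD40+Pam2CSK4, although not all of these differences were called and that of LOC100045296 with anti-CD40 turned to -0.21 under median normalization. After slide adjustment LOC100045296 passed with Pam2CSK4 (0.40, adjusted p = 0.0123) and anti-CD40 (0.46, adjusted p = 0.00126) too, and which of them tracks the Stat3 message cannot be told from the array.

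**Figure D4:**
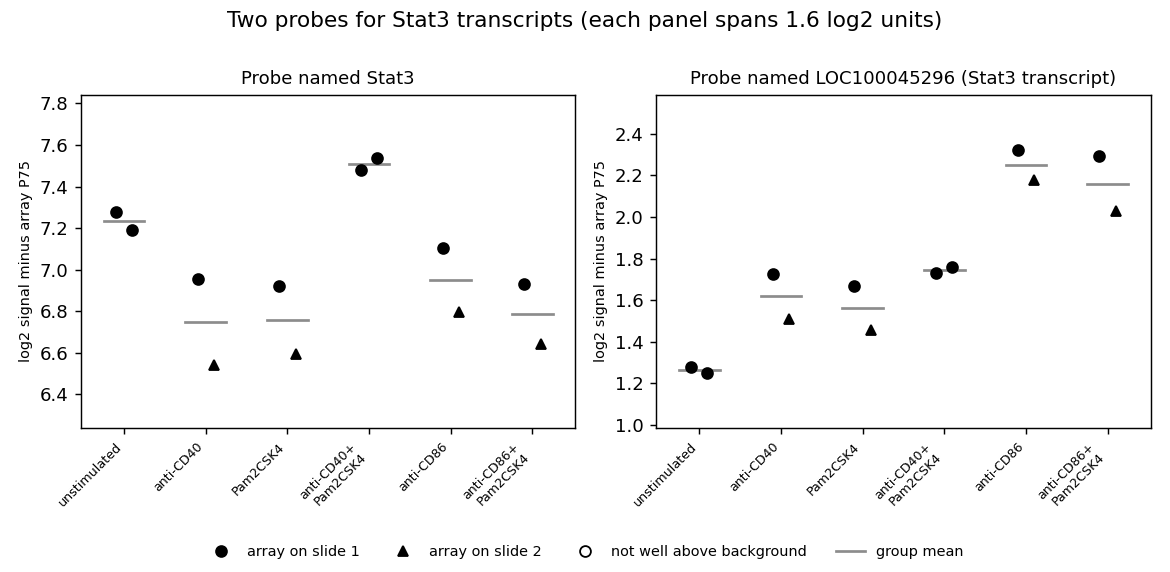
Log2 signal relative to the array's 75th percentile (vertical axis) of the probe named Stat3 and of the probe named LOC100045296; circles are slide 1, triangles slide 2, and grey lines group means. The first is highest with anti-CD40+Pam2CSK4 (7.51), the second with anti-CD86 (2.25).

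The rest of the pathway was read from 40 further genes in 6 lists, of which 36 were tested. Against unstimulated cells 1 rose with Pam2CSK4, 1 rose and 1 fell with anti-CD86, 7 rose and 6 fell with anti-CD40, 4 rose and 2 fell with TLR2.CD86, and 6 rose and 4 fell with anti-CD40+Pam2CSK4, beside 0.160, 2.14, 20.5, 13.1 and 21.5% of all genes called in either direction. Their median log2 fold changes were -0.01, -0.11, -0.04, -0.06 and 0.09 in the same order, beside -0.16, -0.16, -0.18, -0.20 and -0.10 over all genes. Setting the 1 gene below background in unstimulated cells to its bound moved the second of these to -0.08 and none of the others.

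Among the 9 other ligands, 8 were tested. Ebi3, a subunit of Il27 and Il35, rose with anti-CD40 (log2 1.53, adjusted p = 0.00185) and anti-CD40+Pam2CSK4 (log2 2.12, adjusted p = 0.000207). In both comparisons Ebi3 remained called in every fit that left out 1 array. Not every other pathway call remained in these fits. Il31 had no unstimulated array above background. Its level was at least 2.12-fold higher with anti-CD40 (adjusted p = 0.0231) and at least 2.98-fold higher with anti-CD40+Pam2CSK4 (adjusted p = 0.00555), and these p-values rest on unstimulated values at the detection limit. The first call was lost under quantile normalization (adjusted p = 0.259), under normexp (adjusted p = 0.0512) and without some single arrays (adjusted p up to 0.127). Il11 rose with anti-CD40 by 0.49 (adjusted p = 0.0393), a difference that turned to -0.08 under median normalization.

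Il6, the founding ligand, was lower with anti-CD86 than in unstimulated cells (log2 -0.89, adjusted p = 0.0436). Some fits that left out 1 array lost this call, with Il6 at -0.94 to -0.83. Its group means were -0.05 in unstimulated cells, 0.70 with Pam2CSK4, -0.94 with anti-CD86 and -0.48 with anti-CD40. Adding Pam2CSK4 raised it by 1.19 over anti-CD86 (adjusted p = 0.0408) and by 0.98 over anti-CD40 (adjusted p = 0.0202). The Il6 and Clcf1 values thus ran opposite with anti-CD86 alone, one below and the other above unstimulated cells.

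Of the 4 other receptor chains 2 were tested, and Il11ra1 fell with anti-CD40 (-0.70, adjusted p = 0.0194) and anti-CD40+Pam2CSK4 (-0.63, adjusted p = 0.0230), while its second probe was not called (-0.57 and -0.29) but passed after slide adjustment (adjusted p = 0.00570 and 0.00948). Among 6 kinases and other STATs, Stat5a rose with anti-CD40 (0.99, adjusted p = 0.0151) and anti-CD40+Pam2CSK4 (1.15, adjusted p = 0.00568). Stat5b was not called on its brightest probe, but its second probe rose with TLR2.CD86 (0.66, adjusted p = 0.0273) and anti-CD40+Pam2CSK4 (0.52, adjusted p = 0.0357). The 5 tested adaptors and phosphatases were likewise not called on their brightest probes, although 2 dimmer probes of Ptpn11, the phosphatase Shp2, rose with anti-CD40+Pam2CSK4 (0.58, adjusted p = 0.0346, and 1.09, adjusted p = 0.00370).

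Of 4 feedback inhibitors, Socs1 and Socs3, which block JAK signalling, both fell with anti-CD40 (-0.98, adjusted p = 0.00914, and -0.67, adjusted p = 0.0131). Both also fell with anti-CD40+Pam2CSK4 (-0.89, adjusted p = 0.00785, and -0.79, adjusted p = 0.00460). No feedback inhibitor was called with Pam2CSK4, anti-CD86 or TLR2.CD86. In TLR2.CD86 the means were 1.24 for Socs1, 4.14 for Socs3, 1.75 for Cish and -1.58 for Pias3. In unstimulated cells they were 1.80, 4.25, 1.98 and -2.32 in the same order. Socs1 had means of 1.22 with Pam2CSK4 and 1.45 with anti-CD86.

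Of 11 genes known as Stat3 targets, which other pathways also drive, 3 rose and 2 fell with anti-CD40, where 20.5% of all genes were called. The same numbers rose and fell with TLR2.CD86, where 13.1% of all genes were called. The Junb probe counted among the 11 was saturated on all 12 arrays, so a change in it could be missed. Icam1, an adhesion molecule, rose with all 5 stimuli, from 0.72 with anti-CD86 (adjusted p = 0.0314) to 2.84 with anti-CD40+Pam2CSK4 (adjusted p = 6.6e-06). Pim1, a survival kinase, rose with anti-CD40 (2.27), TLR2.CD86 (1.56) and anti-CD40+Pam2CSK4 (2.29), with adjusted p of 0.00107, 0.00954 and 0.000371. Il21r rose in the same 3 groups, by 1.70, 0.89 and 1.42, whereas Cebpd fell in them by 0.52, 0.66 and 0.60 and Fos fell with anti-CD40 and TLR2.CD86 (-0.43 and -0.56). Some fits that left out 1 array lost the calls of Icam1 with Pam2CSK4 and with anti-CD86. The same held for Pim1 and Il21r with TLR2.CD86, and for Cebpd and Fos in each group where they were called. The signs stayed, as for Il21r with TLR2.CD86 (0.73 to 1.05).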

How the data were processed

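Per the labels and the study's methods, Cy3-labelled cRNA was hybridised to a custom 8x60k mouse array and read with Feature Extraction 10.5.1.1. The deposited scanner files give the processed intensity of each spot, background-subtracted by the authors' software. The deposited value table holds log2 values, which the check against the scanner files showed to be the log2 processed intensity minus a constant per array. Here log2 of the processed intensity minus the log2 75th percentile of the non-control spots of each array was used; outlier spots were left out and spots of a probe averaged. Probes entered the test if both arrays of some group marked them well above background. limma 3.58.1 (R 4.3.3) was fitted over all 12 arrays with 1 coefficient per group (6 residual degrees of freedom) and 13 contrasts, with Benjamini-Hochberg adjustment over 31599 probes; the code was tested on simulated data. Replicate numbers come from the sample titles. Figures used matplotlib 3.10.9.

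Each array held 61307 probes after averaging, of which 46.6 to 60.6% were well above background; 987 to 1206 spots an array were saturated. The number of arrays, 2 a group, limits the precision. Genes were named from the array design, and those counted over all genes had a RefSeq symbol, 14407 in all. The rule for named genes was all 8 genes with every probe, pathway genes called against unstimulated cells, and, for called members, the 5 genes most like them. The genes and lists were chosen with earlier results of these data known. The alternatives tried were normexp background correction (offset 50), scaling by the median or by quantiles, the authors' values, other filters, the slide or the replicate number as a block, no moderation, another rule for several probes and leaving out each array; the arrays of slide 1 alone were added after seeing the data.

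Of the markers of other cells, those of T cells, NK cells, macrophages, platelets and red cells were well above background on all arrays for 5 of 6, 4 of 5, 5 of 6, 3 of 4 and 3 of 4 genes. Of the others it was 5 of 5 for neutrophils, 3 of 6 for stroma, 0 of 4 for liver and 1 of 5 for exocrine pancreas, beside 6 of 6 for B cells. Macrophage C1qa, liver Ttr and pancreatic Cpa1 and Pnlip were well above background on no array. Some items are not reported here.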

Additional observations from a re-analysis of the deposited data

Results flagged for a closer look

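In the pathway lists, Icam1 had different effects of Pam2CSK4 with and without anti-CD40: the interaction was -1.34 on the log2 scale (SE 0.16, limma adjusted p = 0.00922), or -1.44 after slide adjustment (adjusted p = 0.00154). Under median normalization it was -0.68 and was not called (limma adjusted p = 0.456). The mean log2 signal of Icam1 was 0.29 in unstimulated cells, 1.77 with Pam2CSK4, 2.99 with anti-CD40 and 3.13 with both. None of the 8 genes had a called interaction. Groups of 2 arrays are too small for a check of single outlying arrays.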

How the results depend on the processing

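The cause of the shifts below was not tested unless stated. Counts are of the 8 genes called, against 0, 1, 0, 2 and 1 with Pam2CSK4, anti-CD86, anti-CD40, TLR2.CD86 and anti-CD40+Pam2CSK4 over unstimulated cells. The slide block gave 3, 4, 4, 4 and 4. With the replicate number as a block they were 2 for anti-CD86, 4 for anti-CD40 and 4 for TLR2.CD86. Deviations of same-numbered samples correlated at 0.54 to 0.67 among the 4 groups whose second array was on slide 2, where number and slide cannot be told apart, and at -0.11 to 0.07 in the other pairs, so the numbers were not taken to pair the samples. On slide 1 alone, chosen after seeing the data, the arms of 1 array are assumed to vary like the other groups (2 residual degrees of freedom), and the counts were 0 for anti-CD86, 2 for anti-CD40 and 3 for anti-CD40+Pam2CSK4. Median normalization and no filter each gave 0 for anti-CD86, TLR2.CD86 and anti-CD40+Pam2CSK4. Quantile normalization gave 1, 1 and 0 for anti-CD40, TLR2.CD86 and anti-CD40+Pam2CSK4, where it called 6411, 3986 and 6396 of 31599 probes. Normexp gave 0 for the last, where it called 6282 probes. No moderation gave 1 for TLR2.CD86, with 3470 probes called. Only probes above background on all arrays gave 2 for anti-CD86, with 1394 of 25969 probes called.

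Between stimuli the counts were 0 and 0 for TLR2.CD86 against Pam2CSK4 and anti-CD86, and 1, 0 and 2 for anti-CD40+Pam2CSK4 against Pam2CSK4, anti-CD40 and TLR2.CD86; they were 1 for anti-CD40 against anti-CD86 and 0 for the anti-CD40 interaction. The slide block gave 2, 1, 3, 1, 5, 3 and 3. Of all 31599 probes it called 3462, 2446, 9950, 4804, 10926, 11006 and 2713 in the same order. The replicate block gave 1, 4, 2 and 2 in the last 4, where it called 2041, 6725, 5423 and 1404 of all probes. Median normalization and no filter each gave 0 for anti-CD40+Pam2CSK4 against Pam2CSK4, the same against TLR2.CD86, and anti-CD40 against anti-CD86, and no moderation gave 0 in the former 2. Of all probes, median normalization called 241, 272 and 377 there, and no filter 941, 1252 and 1201 of 61207. No moderation called 3196 and 3831 in the former 2. Quantile normalization and normexp each gave 1 for anti-CD40+Pam2CSK4 against TLR2.CD86 and 2 for anti-CD40 against anti-CD86. Of all probes, quantile normalization called 4464 and 4408 there, and normexp 4017 and 3795. For the interaction normexp gave 1, where it called 343 of all probes. Only probes above background on all arrays gave 2 for anti-CD40 against anti-CD86, with 3452 of 25969 probes called. Leaving out 1 array gave 0 to 3 for anti-CD40 against anti-CD86, 0 to 2 for TLR2.CD86, for anti-CD40+Pam2CSK4 against TLR2.CD86 and for the anti-CD40 interaction, 0 to 1 for anti-CD86, anti-CD40, anti-CD40+Pam2CSK4 and the last against Pam2CSK4, and 0 in the others.

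Over all probes tested, 46, 686, 5324, 3409 and 5763 were called against unstimulated cells; with the slide as a block 3510, 8991, 11777, 11084 and 14996, with the replicate block 245, 3967, 9427, 7787 and 8544, with median normalization 96, 68, 348, 132 and 464, with quantile normalization 79 and 1627 in the first 2, with no filter 8, 0, 1112, 26 and 2486, and on slide 1 alone 0, 4, 7270, 6379 and 12714. Of 72 called values of the genes named here, median normalization turned 1 (Il11) and left 5 called, while quantile, normexp and the authors' values left 63, 65 and 70.

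Of the 8 genes, the signs that turned were all of differences not called. Under median normalization these were Clcf1 with anti-CD40 (-0.16), Osm with anti-CD40 (-0.28), TLR2.CD86 (-0.094) and anti-CD40+Pam2CSK4 (-0.021), Il6st with anti-CD86 (-0.024) and Il6ra with anti-CD40 (-0.45). Il6ra with anti-CD40 was -0.19 under quantile normalization and -0.00087 with the median over probes, and Stat3 with anti-CD86 was 0.049 under quantile normalization. Il6ra with anti-CD40+Pam2CSK4 was 0.12 with normexp and 0.061 with the median over probes. Il6st was 0.022 with the slide block and 0.053 on slide 1 with Pam2CSK4, and 0.059 in both with TLR2.CD86. Leaving out 1 array gave Osm -0.28 to 0.63 with anti-CD86 and -0.037 to 0.21 with anti-CD40+Pam2CSK4, Il6st -0.29 to 0.053 with Pam2CSK4 and -0.22 to 0.059 with TLR2.CD86, and Il6ra -0.15 to 0.064 with anti-CD40+Pam2CSK4.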
